A study of Mus musculus with 5 samples.

Results

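The Zbtb16 and Il7r loci were taken as 2 windows of the mouse genome (mm9), and every ATAC-seq peak that overlapped a window was a member. ATAC-seq marks accessible DNA by letting a transposase cut and tag it. The Zbtb16 window was chr9:48420000-48690000 (270 kb) and the Il7r window was chr15:9390000-9510000 (120 kb). They held 45 and 70 peaks, 115 of the 332881 peaks in 5 lists. Peaks that overlapped by at least 1 bp in any list were merged, which gave 22 Zbtb16 regions and 37 Il7r regions of 157434 in all. Membership went by position alone, and the windows were picked with earlier results of these data known. The nearest regions inside the edges lay 33.6 and 45.7 kb from the ends of the Zbtb16 window, and the nearest outside lay 49.2 and 103 kb beyond them. For the Il7r window these distances were 3.02 and 2.66 kb inside, and 4.61 and 0.34 kb outside. Of these 4 outside regions, 3 were held by SOX13lo alone, and the one 103 kb away by transgenic SOX13hi, SOX13lo and DP.

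The 5 libraries came from thymocytes of C57BL/6 mice, and each group held 1 library. Transgenic SOX13hi and transgenic SOX13lo cells were γδ T thymocytes of the genotype TCRbeta KO.Sox13tg+.Sox13 ECFP KI/+. SOX13hi and SOX13lo cells were γδ T thymocytes of the genotype TCRbeta KO.Sox13 ECFP KI/+. DP cells were wild-type double-positive thymocytes, which carry both CD4 and CD8 on the way to the αβ T cell lineage. All 4 γδ libraries therefore shared the TCRbeta knockout and a Sox13 allele with the ECFP reporter, and DP had neither, so cell type and genotype cannot be told apart between γδ and DP libraries. Within each γδ genotype, CD24+ cells with high CFP (SOX13hi) were sorted apart from those with low or no CFP (SOX13lo), 40000 cells per library. The promoter that drives the Sox13 transgene, the age of the mice and whether animals were pooled are not stated in the labels used here.

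The lists held 63932 peaks (transgenic SOX13hi), 33155 (transgenic SOX13lo), 54435 (SOX13hi), 67482 (SOX13lo) and 113877 (DP). Because read depth is unknown and may set the length of a list, counts were divided by each library's total of regions and were also taken with the 33155 highest scores of each list, called the equal-length lists. Each peak has a whole-number score of unstated meaning. It is used here only as a place within its own list, given as the percent of that list's peaks with a lower score, and such places are not comparable between lists of different length. Every line of the SOX13lo list carries the name SOX13hi, against its sample label, which was followed here. The labels give transgenic SOX13hi and DP the same index. Peaks were not placed on marker genes, so the sorted identities were not checked.

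Zbtb16 encodes PLZF, a BTB zinc-finger transcription factor known for directing the effector programme of innate-like T cells, among them NKT cells and subsets of γδ T cells. Il7r encodes the α chain of the interleukin-7 receptor, which pairs with the common γ chain and signals through JAK kinases and STAT5. IL-7 receptor signals keep early thymocytes alive and open the T cell receptor γ locus for rearrangement, and Il7r expression is known to be low at the DP stage. In the RefSeq gene order of GRCm38, Zbtb16 lies between Nnmt and Gm32280, with Htr3a beyond, and Il7r lies between Capsl and Spef2. No mm9 gene annotation was used, so peaks were not called promoter, exonic or intronic, and part of a window may belong to a neighbour.

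Of the 2 genes, Il7r matched an entry of the RefSeq promoter table. Its 250 bases before the transcription start are shown to give the sequence of the gene's control region. They are written 5′ to 3′ and lie on the minus strand at chr15:9529877-9530126 of GRCm38.p6. These coordinates cannot be set beside the mm9 peak positions, and no peak was placed on this sequence. Capitals mark the match to the ETS-family motif CAGGAAG, found on the opposite strand.
Il7r: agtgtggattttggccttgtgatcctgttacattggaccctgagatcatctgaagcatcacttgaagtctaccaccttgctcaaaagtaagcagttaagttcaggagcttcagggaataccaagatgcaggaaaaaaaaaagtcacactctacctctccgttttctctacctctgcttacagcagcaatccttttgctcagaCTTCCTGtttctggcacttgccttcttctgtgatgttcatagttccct
The match starts 48 bases before the transcription start. GABP, a factor of the ETS family, is known to bind the Il7r promoter in T cells. This motif was found in 10.8% of 32851 promoter windows of the same length on either strand. The E-box CANNTG had 3 matches in these 250 bases, and 66.2% of all promoter windows held at least 1. Of the other motifs searched, the SOX motif AACAAT was not in these 250 bases on either strand and was found in 9.42% of promoter windows. The same holds for the HMG-factor motif ACAAAG, found in 16.5% of windows, and for the RUNX motif TGTGGT, found in 14.0%. The second ETS form, CCGGAAG, had no match here and was found in 6.91% of windows. The GATA motif AGATAA had none and was found in 9.99%.

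Zbtb16 had fewer regions than Il7r in a longer window. Peaks of one place often missed each other by a few bases between libraries. Neighbouring peaks within 500 bp, over all lists, were therefore also joined into sites, a distance chosen after the peaks were seen. This gave 11 Zbtb16 sites, numbered along the window. All 5 libraries held sites 6 and 8, with the centre of site 6 at -25.1 kb from that of site 8. They made 18.2% of the sites, against 21.3% of all 63657 sites of the genome. Another 3 sites (27.3%) were held by 1 library alone, against 42.1% of all sites. Site 6 was shared by all 5 libraries only through the joining, since none of its merged regions was held by all of them. Of the 22 merged regions, 1 (4.55%) was held by all 5 libraries, against 9.45% of all regions. Held by 1 library alone were 12 regions (54.5%), against 63.9%.

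**Figure D1:**
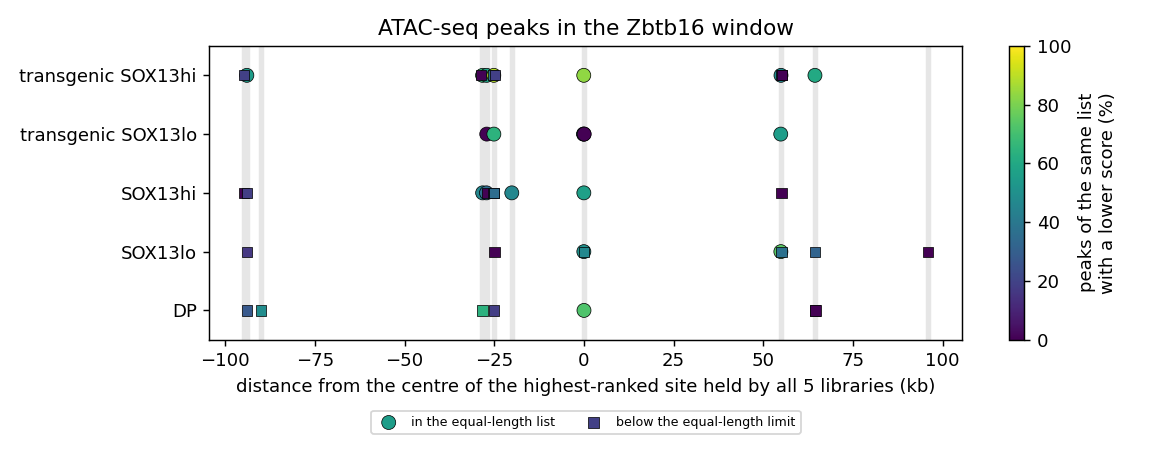
Peaks of the Zbtb16 window in each library, by distance in kb from the centre of site 8, the higher-ranked of the sites that all 5 libraries held. Colour gives the percent of the same list with a lower score, circles are peaks kept in the equal-length lists, squares are the others, and grey lines mark the 11 sites. All 5 libraries have a peak at 0 kb, and DP keeps only that one in its equal-length list.

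Site 8, at chr9:48548259-48548561, was held by every library. Its highest-scoring peak stood above 83.3% of the list in transgenic SOX13hi, 50.9% in transgenic SOX13lo, 56.4% in SOX13hi, 50% in SOX13lo and 72.0% in DP. It was the 1 Zbtb16 site that all 5 libraries kept in the equal-length lists, in SOX13lo through the order of ties. Site 6, at chr9:48523014-48523658, held 3 peaks in transgenic SOX13hi, 1 in transgenic SOX13lo, 3 in SOX13hi, 1 in SOX13lo and 1 in DP. Its highest-scoring peak stood above 88.8% of the list in transgenic SOX13hi, 64.2% in transgenic SOX13lo, 35.3% in SOX13hi and 18.1% in DP. In SOX13lo its peak had the lowest score of the list, 8. The transgenic libraries kept site 6 in the equal-length lists. SOX13hi lost it through the order of ties alone, since its peak had the limit score of that list, 10, and SOX13lo and DP lost it by score. At Zbtb16, 4 peaks had the limit score of a shortened list, so that file order decided on them. Those of site 9 in transgenic SOX13hi, site 5 in SOX13hi and site 8 in SOX13lo were kept, and that of site 6 in SOX13hi was not. No Il7r peak was tied in this way.

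Site 6 lies in a stretch of 8.70 kb, chr9:48519632-48528327, that holds sites 4 to 7 and was singled out after its values were seen. The stretch held 6 peaks in transgenic SOX13hi, 2 in transgenic SOX13lo, 7 in SOX13hi, 1 in SOX13lo and 2 in DP. In the equal-length lists it held 3, 2, 3, 0 and 0 peaks, in the same order. These counts are not scaled to list length, and they show no more than the choice of the stretch fixed. Site 4, at chr9:48519632-48520236, was held by transgenic SOX13hi (above 67.7% of the list), SOX13hi (46.4%) and DP (64.0%). Site 5, at chr9:48521238-48521357, was held by transgenic SOX13hi (58.0%), transgenic SOX13lo (the lowest score) and SOX13hi (35.3%). Site 7, at chr9:48528297-48528327, was held by SOX13hi alone (46.4%).

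Site 9, at chr9:48603265-48603660, was the 1 Zbtb16 site held by all 4 γδ libraries and not by DP, a pattern of 0.861% of all sites. It arose only by joining, since not all of its peaks overlapped. None of the 22 merged regions had this pattern, against 0.694% of all regions, and none of the 8 equal-length Zbtb16 sites, against 2.74%. Its highest-scoring peak stood above 47.9% of the transgenic SOX13hi list, 55.3% of the transgenic SOX13lo list and 74.5% of the SOX13lo list. In SOX13hi its peak had the lowest score of the list, 7. Site 10, at chr9:48612752-48612983, was held by transgenic SOX13hi (60.3%), SOX13lo (31.8%) and DP (34.9%).

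The remaining Zbtb16 sites stood at or below the middle of most lists that held them. Site 2, at chr9:48454413-48454539, stood above 55.3% of the list in transgenic SOX13hi, and above 18.3% in SOX13hi, 16.1% in SOX13lo and 27.7% in DP. Site 1, at chr9:48453562-48453596, was held by the 2 SOX13hi libraries alone, above 19.0% of the list in transgenic SOX13hi and with the lowest score in SOX13hi. Site 3, at chr9:48458413-48458440, was held by DP alone, with a score above 48.5% of that list. It was the 1 Zbtb16 site in DP and no γδ library (9.09%, against 30.5% of all sites). Site 11, at chr9:48644320-48644347, was held by SOX13lo alone with its lowest score. Of the 45 peaks, none reached the highest 10% of its list, and 57.8% were 28 to 30 bp wide, against 44.6% of all peaks.

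Il7r had more regions for its length than Zbtb16, and its highest-scoring peak stood higher in every list. Its median peak stood lower than that of Zbtb16 in transgenic SOX13hi (36.5% against 47.9%) and DP (17.4% against 34.9%). In the other libraries it stood higher. In the highest 10% of their lists stood 3 of 16 Il7r peaks in transgenic SOX13hi, 2 of 16 in SOX13hi and 1 of 22 in SOX13lo. Transgenic SOX13lo and DP, with 8 peaks each, had 0. By definition, at most 10% of any list stands there. Its 11 sites fell into 3 groups, 9.56, 10.01 and 10.4 kb long, separated by 51.0 and 33.4 kb without a peak in any library. Of the 11 sites, 4 (36.4%) were held by all 5 libraries, against the 21.3% of all sites given above. None was held by 1 library alone, against 42.1%. These shares rest on the joining within 500 bp. Of the 37 merged regions, 3 (8.11%) were held by all 5 libraries, against 9.45% of all regions, and 23 (62.2%) by 1 alone, against 63.9%. Of the 8 equal-length sites, 2 (25%) were held by all 5 libraries, against 30% of all such sites, and 2 by 1 alone, against 32.1%. In 4 of the 5 libraries the window held more regions than at least 90% of windows of its length. It stood above 97.4% of 12093 windows with a region in any library in transgenic SOX13hi, 91.4% in transgenic SOX13lo, 98.1% in SOX13hi and 98.7% in SOX13lo, and above 52.8% in DP. For the Zbtb16 window these values were 77.1%, 59.4%, 77.6%, 49.5% and 38.8% of 6646 windows of 270 kb, in the same order.

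**Figure D2:**
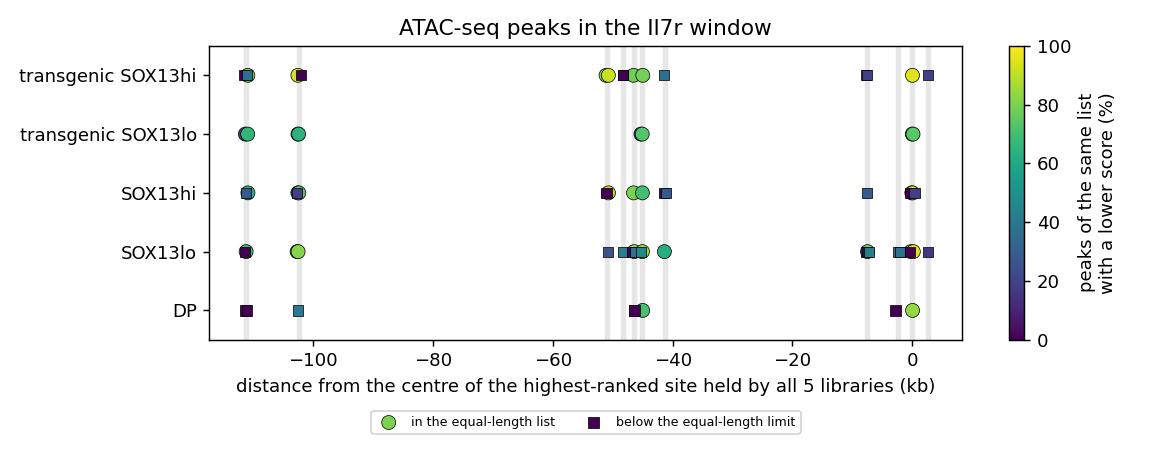
Peaks of the Il7r window in each library, by distance in kb from the centre of site 10, the highest-ranked site that all 5 libraries held, with colours and symbols as for Zbtb16. The peaks fall into 3 groups, and DP keeps 1 site in the middle group and site 10 in its equal-length list.

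The group at the low end, sites 1 and 2, was present in all 5 libraries. Site 2, at chr15:9401912-9402576, stood above 93.2% of the list in transgenic SOX13hi, 64.2% in transgenic SOX13lo, 75.6% in SOX13hi, 82.0% in SOX13lo and 40.9% in DP. Site 1, at chr15:9393021-9393829, stood above 80.2% of the list in transgenic SOX13hi, 66.3% in transgenic SOX13lo, 64.5% in SOX13hi and 69.1% in SOX13lo. In DP its peaks had the lowest score of the list, 5. Both sites stayed in the equal-length list of each γδ library and not in that of DP. They were 25% of the 8 Il7r sites then left (3.19% to 65.1%, exact 95% interval), and 2.74% of all equal-length sites had this pattern. At site 1 the pattern arose only by joining, since the kept SOX13lo peak overlapped no kept peak of another library. With all peaks, none of the 37 merged regions had the pattern, against 0.694% of all regions.

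The middle group, sites 3 to 7, held a site in the highest 10% of both SOX13hi lists. Site 3, at chr15:9453533-9454001, stood above 92.1% of the list in transgenic SOX13hi and 90% in SOX13hi. In SOX13lo it stood above 25% of the list, with a score of 10, and transgenic SOX13lo and DP had no peak there. In the equal-length lists site 3 was present in both SOX13hi libraries and in neither SOX13lo library. Of all equal-length sites 4.39% had this pattern, and at Zbtb16 site 4 was the 1 site of 8 with it. Site 6, at chr15:9459355-9459763, was held by all 5 libraries. It stood above 78.8% of the list in transgenic SOX13hi, 72.9% in transgenic SOX13lo, 69.9% in SOX13hi, 85.6% in SOX13lo and 71.1% in DP.

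Site 5, at chr15:9457830-9458499, stood above 78.1% of the list in transgenic SOX13hi, 79.2% in SOX13hi, 83.3% in SOX13lo and 34.9% in DP. Transgenic SOX13lo, the shortest list, had no peak there. Site 7, at chr15:9463201-9463545, stood above 36.5% of the list in transgenic SOX13hi, 28% in SOX13hi and 61.9% in SOX13lo. At this site the peaks of the 3 libraries did not overlap, and they lay within 345 bp. Site 4, at chr15:9456308-9456427, was held by transgenic SOX13hi with its lowest score and by SOX13lo (42.2%).

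The group at the high end, sites 8 to 11, held the strongest Il7r site. Site 10, at chr15:9504268-9505062, stood above 95.1% of the list in transgenic SOX13hi, 74.2% in transgenic SOX13lo, 91.0% in SOX13hi, 95.3% in SOX13lo and 84.1% in DP. Site 8, at chr15:9496915-9497429, held 4 peaks in SOX13lo and stood above 79.3% of that list. It stood above 28.8% of the list in transgenic SOX13hi and 28% in SOX13hi, and transgenic SOX13lo and DP had no peak there. Site 9, at chr15:9501837-9502627, was held by SOX13lo (37.4%) and by DP with its lowest score, 5. The SOX13lo and DP peaks of site 9 did not overlap. Site 11, at chr15:9507267-9507341, was held by transgenic SOX13hi (19.0%) and SOX13lo (16.1%). The group held 4 peaks in transgenic SOX13hi, 2 in transgenic SOX13lo, 5 in SOX13hi, 10 in SOX13lo and 2 in DP, and in the equal-length lists 1, 2, 2, 3 and 1.

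**Figure D3:**
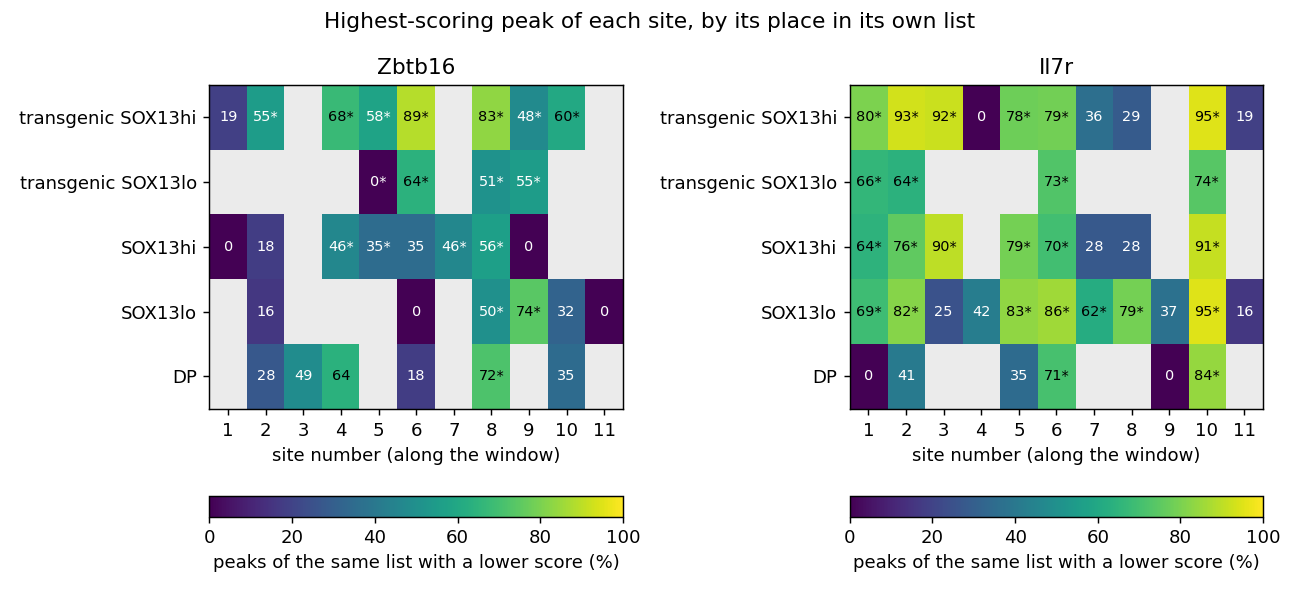
Sites of both windows (columns, in order along the window) in each library (rows). Numbers and colours give the percent of the same list that scored lower than the site's highest-scoring peak, grey marks no peak, and an asterisk marks a site kept in the equal-length list. At Il7r, sites 1, 2, 6 and 10 are filled in every row, and site 3 reads 92 in transgenic SOX13hi, 90 in SOX13hi and 25 in SOX13lo.

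The comparison of SOX13hi with SOX13lo cells asked how the loci differ with Sox13 reporter level. At Zbtb16, 11 regions (exact Poisson 95% interval 5.49 to 19.7) were present in SOX13hi and 7 (2.81 to 14.4) in SOX13lo. Scaled to the totals the ratio was 2.10 (0.742 to 6.38), above 97.8% of 3714 windows of this length. Of those windows 11.6% were at least 1.5 times higher in SOX13hi. The interval of the ratio includes 1, so the difference was not detectable at these counts. With the upper 50% of each list by score the direction turned, to 0.654 (0.0111 to 12.6), from 1 region in SOX13hi and 2 in SOX13lo. With equal-length lists whose ties were taken from the end of the file, the ratio was 4.29 (0.425 to 212), from 4 regions and 1. SOX13hi alone held 4 of the 10 sites of the pair (40.0%, 12.2% to 73.8%), against 13.1% of all sites. SOX13lo alone held 2 (20%), against 26.8%. With equal-length lists the ratio was 2.14 (0.307 to 23.7). SOX13hi alone then held 3 of 5 sites (sites 4, 5 and 7), against 16.8%, and SOX13lo alone 1 (site 9), against 20.1%. Of these, site 5 in SOX13hi was kept through the order of ties.

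At Il7r, SOX13hi had 15 regions (8.40 to 24.7) and SOX13lo had 21 (13.0 to 32.1), a scaled ratio of 0.953 (0.457 to 1.94). All 8 Il7r sites of SOX13hi were also held by SOX13lo, and SOX13lo alone held 3 of 11 (sites 4, 9 and 11), near the 26.8% of all sites. With equal-length lists the ratio was 0.938 (0.290 to 2.96). Site 3 was then in SOX13hi alone, 1 of 8 sites, and sites 7 and 8 were in SOX13lo alone, 2 of 8. These shares of 12.5% and 25% lie near the 16.8% and 20.1% of all sites.

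In transgenic cells the same contrast gave a Zbtb16 count of 13 regions (6.92 to 22.2) in transgenic SOX13hi and 4 (1.09 to 10.2) in transgenic SOX13lo. The scaled ratio was 1.52 (0.469 to 6.40), above 82.5% of 3131 windows, and 17.6% of them were at least 1.5 times higher in transgenic SOX13hi. Transgenic SOX13hi alone held 4 of 8 Zbtb16 sites and 6 of 10 Il7r sites, against 47.9% of all sites. Transgenic SOX13lo alone held none, against 5.69%. At Il7r the counts were 16 regions (9.15 to 26.0) in transgenic SOX13hi and 6 (2.20 to 13.1) in transgenic SOX13lo, a scaled ratio of 1.25 (0.463 to 3.89). With equal-length lists the ratios were 1.22 (0.333 to 4.87) at Zbtb16 and 1.02 (0.292 to 3.66) at Il7r. Transgenic SOX13hi alone then held 3 of 7 Zbtb16 sites (sites 2, 4 and 10) and 2 of 6 Il7r sites (sites 3 and 5), against 29.1%. Transgenic SOX13lo alone held none, against 15.9%. The intervals of all 4 ratios include 1. With the upper 50% by score the ratios were 0.978 at Zbtb16 and 0.856 at Il7r, on the other side of 1.

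Some presence patterns were shared by both genotypes. Sites 1 and 4 of Zbtb16 were held by both SOX13hi libraries and neither SOX13lo library (18.2%, 2.28% to 51.8%), against 3.69% of all sites. Site 1 had the lowest score of the SOX13hi list, and site 4 was held by DP too. With equal-length lists 1 of 8 sites at each locus had this pattern (12.5%, 0.316% to 52.7%), against 4.39%. No site of either locus was held by both SOX13lo libraries and neither SOX13hi library, a pattern of 0.738% of all sites.

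The transgene comparison set cells with the Sox13 transgene against cells of the same fraction without it. In the SOX13hi fraction Zbtb16 had 13 regions in transgenic SOX13hi and 11 in SOX13hi, a scaled ratio of 0.980 (0.405 to 2.42). Il7r had 16 in transgenic SOX13hi and 15 in SOX13hi, a ratio of 0.885 (0.410 to 1.92). Transgenic SOX13hi alone held 1 of 9 Zbtb16 sites (site 10) and 2 of 10 Il7r sites (sites 4 and 11), against 24.9% of all sites. SOX13hi alone held 1 Zbtb16 site (site 7) and no Il7r site, against 11.3%. With equal-length lists both libraries held the same 6 Il7r sites. At Zbtb16 the equal-length ratio was 1.71 (0.434 to 7.95), and with the upper 50% by score it was 5.05 (0.612 to 232). In the equal-length lists transgenic SOX13hi alone held 4 of 8 Zbtb16 sites (sites 2, 6, 9 and 10; 50%, 15.7% to 84.3%), against 18.4%. Of these 4, site 6 was lost from SOX13hi and site 9 was kept in transgenic SOX13hi through the order of ties. SOX13hi alone held 1 (site 7), against 14.6%.

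In the SOX13lo fraction the transgenic library has the shortest list. Zbtb16 had 4 regions in transgenic SOX13lo and 7 in SOX13lo, a scaled ratio of 1.35 (0.290 to 5.32). Il7r had 6 in transgenic SOX13lo and 21 in SOX13lo, a ratio of 0.676 (0.223 to 1.73). Transgenic SOX13lo alone held 1 of 7 Zbtb16 sites (site 5) and no Il7r site, against 6.18% of all sites. SOX13lo alone held 3 of 7 Zbtb16 sites and 7 of 11 Il7r sites, against 48.5%. With equal-length lists the ratios were 3.01 (0.492 to 31.6) at Zbtb16, from 5 regions in transgenic SOX13lo (merging without the weaker peaks of the other lists split 1 region) and 2 in SOX13lo, and 0.902 (0.258 to 2.96) at Il7r. With ties from the end of the file the Zbtb16 ratio was 6.01 (0.672 to 284), from 5 regions in transgenic SOX13lo and 1 in SOX13lo. With the upper 50% by score it was 3.37 (0.387 to 40.4), from 3 regions and 2, and the Il7r ratio was 1.12, on the other side of 1. In the equal-length lists with ties in file order, transgenic SOX13lo alone held 2 of 4 Zbtb16 sites (sites 5 and 6) and no Il7r site, against 16.3%. SOX13lo alone held no Zbtb16 site and 3 of 7 Il7r sites (sites 5, 7 and 8), against 29.1%.

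With all peaks, no site of either locus was held by both transgenic and neither non-transgenic γδ library, a pattern of 0.856% of all sites. With equal-length lists 1 of 8 Zbtb16 sites had it (site 6; 12.5%, 0.316% to 52.7%), against 1.91%, through the tie that SOX13hi lost there. With all peaks none was held by both non-transgenic and neither transgenic γδ library, against 2.65%.

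**Figure D4:**
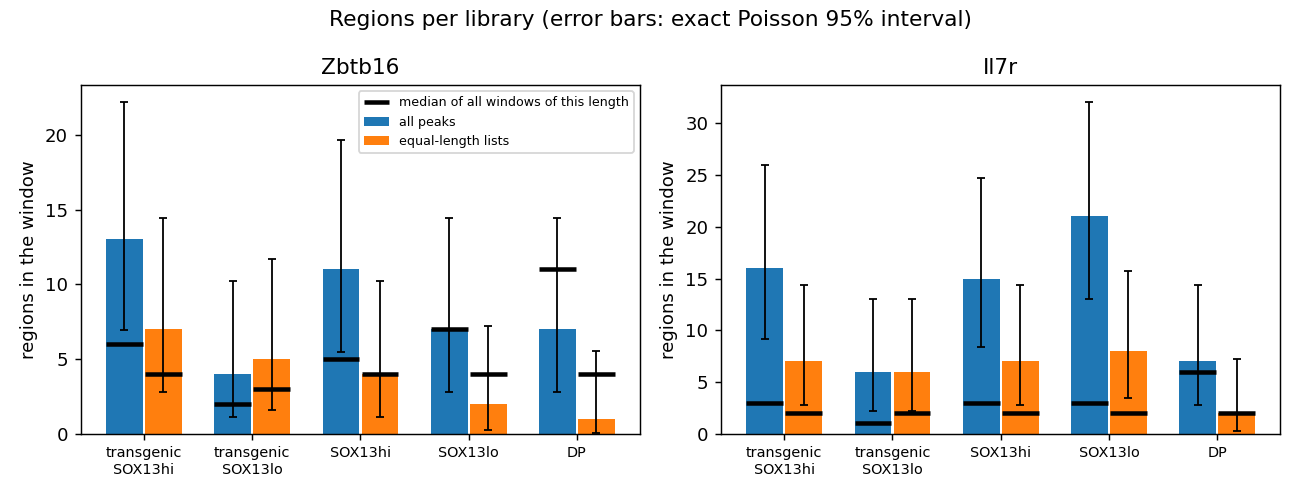
Number of merged regions in each window and library, with all peaks (blue) and with equal-length lists (orange). Error bars are exact Poisson 95% intervals. Black lines are the medians of windows of the same length with a region in any library. At Il7r the γδ libraries have 6 to 21 regions against a median of 1 to 3, and DP has 7 against a median of 6.

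In the last comparison the γδ libraries were set against the DP library. Both loci held more regions in γδ libraries than in DP relative to list length. At Il7r the γδ libraries averaged 14.5 regions and DP had 7, a scaled ratio of 5.06 (2.31 to 13.1), above 96.2% of 7969 windows of 120 kb. A ratio of at least 1.5 in this direction was found in 27.0% of those windows. At Zbtb16 the γδ mean was 8.75 regions and DP had 7, a ratio of 3.05 (1.34 to 8.14), above 92.2% of 5025 windows of 270 kb. There 27.3% of windows reached 1.5. Regions shared by γδ libraries were counted once in each, so these intervals are too narrow. Counted as sites, the ratios were 2.57 (1.06 to 7.51) at Il7r and 2.03 (0.816 to 6.02) at Zbtb16, where the interval includes 1.

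Each γδ library lay above DP at both loci after scaling. At Il7r the ratio of transgenic SOX13hi to DP was 4.75 (1.85 to 13.7), that of transgenic SOX13lo 3.81 (1.06 to 13.2), that of SOX13hi 5.37 (2.06 to 15.6) and that of SOX13lo 5.63 (2.31 to 15.7). At Zbtb16 transgenic SOX13hi had a ratio of 3.86 (1.43 to 11.4), transgenic SOX13lo 2.54 (0.545 to 9.99), SOX13hi 3.94 (1.39 to 12) and SOX13lo 1.88 (0.562 to 6.27). The intervals of both SOX13lo libraries at Zbtb16 include 1.

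With equal-length lists Il7r averaged 7 regions in γδ libraries and had 2 in DP, a ratio of 4.03 (1.02 to 34.9), and 23.4% of 5461 windows reached 1.5. Zbtb16 averaged 4.5 regions in γδ libraries and had 1 in DP, a ratio of 5.18 (0.818 to 216), and 24.7% of 4148 windows reached 1.5. In these lists each single γδ library had an Il7r ratio between 3.86 and 4.28, and each of the 4 intervals included 1. Counted as sites, these lists gave γδ to DP ratios of 3.42 (0.846 to 29.96) at Il7r and 5.06 (0.793 to 211.5) at Zbtb16. Both of these intervals include 1. DP kept sites 6 and 10 of Il7r and site 8 of Zbtb16, and these were held by all 4 γδ libraries too. With all peaks DP held 6 of 11 Il7r sites and 6 of 11 Zbtb16 sites, against 51757 of all 63657 sites. No Il7r site and 1 Zbtb16 site (site 3) were in DP and no γδ library, against 30.5% of all sites. With all peaks, each Il7r site that the 4 γδ libraries shared had a DP peak too.

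**Figure D5:**
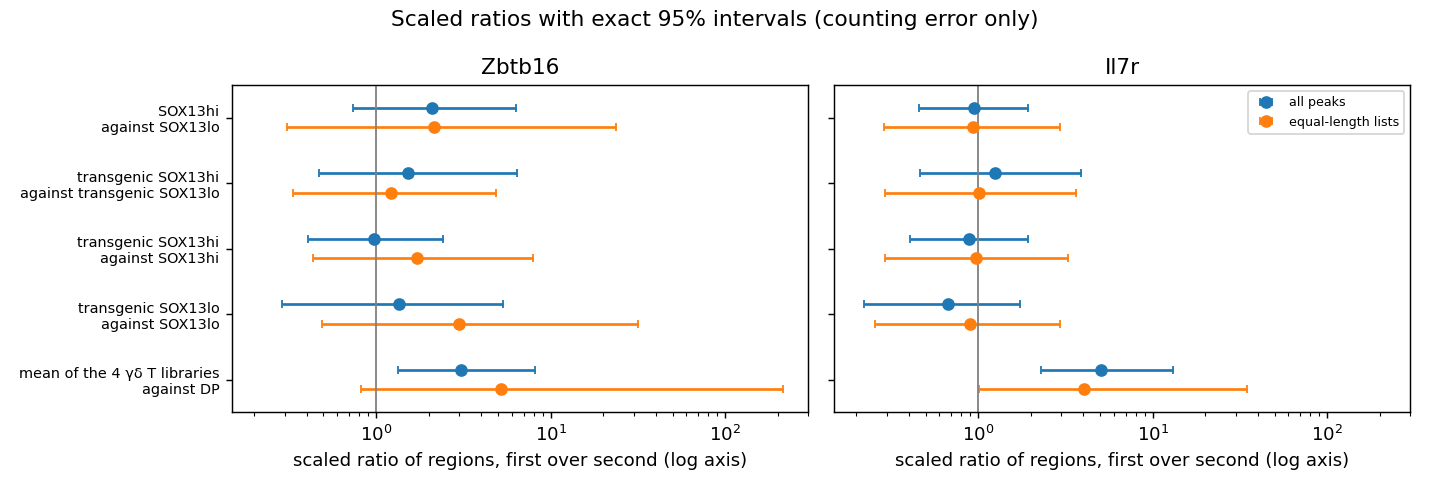
Scaled ratios of regions for 5 comparisons at each locus (log axis), with all peaks (blue) and equal-length lists (orange); bars are exact 95% intervals that cover counting error only, and the grey line marks 1. The ratios of γδ libraries to DP are 3.05 and 5.06 with all peaks and are the only ones whose all-peak intervals leave out 1.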

How the data were processed

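The submitters' processing notes name mm9 as the build of the peak lists, 1 per library. The deposited score of each peak is a whole number whose meaning, like the aligner, peak caller, threshold and read depth, is not given in the sources used here. Scores ranked and filtered peaks within a list only. The members, lists and windows were chosen with earlier results of these data known.

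Lists were merged (1 bp overlap). A scaled ratio divides the ratio of regions in a window by the ratio of genome totals. With 1 library per group there is no test. Intervals are exact 95% intervals (Poisson for counts, binomial given the sum for ratios, Clopper-Pearson for shares) and cover counting error only. Background windows tile chromosomes 1 to 19, X and Y. For ratios they hold at least 10 regions in the libraries compared, and for counts per library a region in any library. Ties at the equal-length limit were taken in file order. Regions were named if held by all 5 libraries, in the highest 10% of a list, or split by fraction, transgene or cell type; all sites are described. Pathway genes, markers and motifs under peaks, planned for an mm9 annotation or genome, were not analysed here, and the motif search used the RefSeq promoter (GRCm38.p6) instead, chosen after the values were seen. Functions were tested on simulated lists. Analyses ran in Python 3.11.15 (scipy 1.17.1, numpy 2.4.6, matplotlib 3.10.9, pandas 2.3.3).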

Additional observations from a re-analysis of the deposited data

Results flagged for a closer look

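At Zbtb16 the transgenic to non-transgenic ratio of regions was 0.980 in the SOX13hi fraction and 1.35 in the SOX13lo fraction, on opposite sides of 1. At Il7r the SOX13hi to SOX13lo ratio was 1.25 in transgenic cells and 0.953 in non-transgenic cells. With 1 library per group neither difference was tested, and each of the 4 intervals includes 1.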

How the results depend on the processing

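Across 70 values of the 10 scaled ratios under 7 alternatives (equal-length lists with ties from either end, the upper 50% by score, joining within 150 bp, peaks in place of regions, and windows 50 kb wider or 20 kb narrower per side), 66 stayed within the original interval and on its side of 1 where the fold was at least 1.5. With the upper 50% by score, the Zbtb16 ratios of SOX13hi to SOX13lo and of transgenic SOX13hi to transgenic SOX13lo turned, to 0.654 and 0.978, and that of transgenic SOX13hi to SOX13hi was 5.05. With equal-length lists and ties from the end of the file, the Zbtb16 ratio of transgenic SOX13lo to SOX13lo was 6.01. The γδ to DP ratio was 2.32 to 5.18 at Zbtb16 and 3.79 to 7.55 at Il7r under these alternatives. Leaving out each γδ library in turn, an alternative added after seeing the data, gave 2.72 to 3.62 at Zbtb16 and 4.78 to 5.26 at Il7r. Joining within 500 bp, also added, gave 2.03 (0.816 to 6.02) and 2.57 (1.06 to 7.51). The share of regions held by 1 library of a pair alone was 58.8% to 90% over the 4 pairs and both loci, 75.0% to 100% with a reciprocal overlap of 50%, 16.7% to 54.2% with centres within 200 bp, and 20% to 63.6% for sites. No paired analysis was possible because each group holds 1 library. Counts of 1 to 21 regions, with read depth unknown, limit what these windows can show.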
